A study of Mus musculus with 14 samples.

Results

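Neurons build their processes on a scaffold of neurofilaments and microtubules, and they extend them through the growth cone, a motile tip in which microtubules are continually assembled and taken apart. 10 mouse genes of this scaffold were followed across 3 stages of a cerebellar tumor model. They were the neurofilament subunits Nefl, Nefm and Nefh, the neuronal beta-tubulin Tubb3, the microtubule-associated proteins Map1b, Map2 and Mapt, the growth cone protein Gap43, and the stathmins Stmn2 and Stmn3. The members were chosen by gene symbol, with earlier results of these data known, so their shares beside those of all probe sets are descriptions. Every non-control probe set (a group of short probes that reads 1 transcript) annotated to a member was kept, which gave 16 of 12422 probe sets, for 10 of 8251 genes with a symbol.

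RNA came from dissociated cerebellum on 14 expression arrays in 3 groups, and all groups were described as patched heterozygous mice, maintained by breeding with 129X1/SvJ mice. Patched (Ptch1) is the receptor that restrains hedgehog signalling, the pathway that drives division of granule cell precursors. The groups were granule cell precursors from mice aged 7 days (GCP, n = 4), preneoplastic cells from mice aged 6 weeks (pretumor, n = 5), and tumor cells from mice aged 10 to 25 weeks with signs of medulloblastoma (tumor, n = 5). Cells were freed with papain and DNase and taken from the interface of a 35% and 65% Percoll gradient. The labels give no wild-type group, so every comparison is within 1 genotype. Age and stage differ together and cannot be told apart. Whether arrays of a group came from separate animals is not given, so the p-values rest on the spread among arrays, part of which may be technical.

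In developing neurons, Gap43 sits under the growth cone membrane and links signals to the actin network, and stathmins bind free tubulin and promote loss of microtubule ends. Tau (Mapt), Map1b and Map2 bind along the microtubule wall, with tau and Map1b prominent in axons and Map2 in dendrites. Neurofilaments come late in this programme and set the calibre of long axons. In the cerebellum, granule cell precursors divide in the external granular layer, leave the cell cycle and grow the parallel fibres as they migrate inward.

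Levels are log2 of the deposited intensity, so a difference of 1 is a change of 2-fold. Of all values, 70.5% lay below an intensity of 16 (log2 4), in a narrow band called the low band here. Background was not measured, and no fold change is given where both groups lie in that band. Of the 16 member probe sets, 8 averaged 16 or more in at least 1 group. These 8 read Tubb3 (2 sets), Mapt (2), Gap43 (1), Stmn2 (2) and Stmn3 (1). Nefl, Nefm, Nefh, Map1b and Map2 lay in the low band in every group mean. Tests were moderated linear models (limma) over all 12422 probe sets. The threshold for a call was a Benjamini-Hochberg adjusted p under 0.05.

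The GCP arrays fell into pairs. GCP 1 and GCP 2 correlated at r = 0.9977 over all probe sets and GCP 3 and GCP 4 at 0.9975, against 0.9939 to 0.9956 across the pairs. The Gapdh control is read at its 3′ and its 5′ end as a measure of RNA integrity, and the log2 ratio 3′ over 5′ ran from -0.0182 to 0.558 in GCP, from 0.00563 to 1.08 in pretumor and from 0.151 to 0.419 in tumor arrays. For the beta-actin control the same ratio ran from 3.93 to 4.87 over all 14 arrays. It was at most 4.27 in GCP, and highest on pretumor 2 (4.87) and tumor 2 (4.85) in their groups. The other pretumor arrays ran from 4.13 to 4.39 and the other tumor arrays from 3.93 to 4.51. The part of RNA integrity in the results was not tested. Ptch1 itself (104030_at) averaged 7.37 ± 0.12 in GCP, 7.53 ± 0.32 in pretumor and 7.79 ± 0.56 in tumor (SD, n = 4, 5 and 5) and was not called. The label of granule cell precursors was checked against 10 measured precursor markers. Of these, 7 reached 16, while Atoh1, Gli1 and Gli2 did not leave the low band in any group, so the array did not show those defining genes.

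The promoters of the stathmin Stmn3 and the tubulin Tubb3 are shown because these genes both act on neuronal microtubules, and Stmn3 was called in both stages against GCP while Tubb3 was not. They are RefSeq windows on GRCm38.p6, from 250 bases before to 50 bases after the annotated start. Such windows were held for 4 of the 10 genes (Tubb3, Map1b, Map2 and Stmn3). The Stmn3 window is chr2:181314451-181314750 on the minus strand, with CAGATG in capitals, an E-box hexamer of the kind that basic helix-loop-helix factors bind. The Tubb3 window is chr8:123411303-123411602 on the plus strand, with the GC box GGGCGG and a CCAAT box in capitals, which lies on the other strand.

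Stmn3: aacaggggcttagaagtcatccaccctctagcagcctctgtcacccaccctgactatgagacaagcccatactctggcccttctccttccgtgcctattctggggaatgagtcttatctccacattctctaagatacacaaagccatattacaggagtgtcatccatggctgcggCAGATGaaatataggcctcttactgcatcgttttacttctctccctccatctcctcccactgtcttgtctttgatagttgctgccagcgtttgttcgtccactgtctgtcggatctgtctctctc

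Tubb3: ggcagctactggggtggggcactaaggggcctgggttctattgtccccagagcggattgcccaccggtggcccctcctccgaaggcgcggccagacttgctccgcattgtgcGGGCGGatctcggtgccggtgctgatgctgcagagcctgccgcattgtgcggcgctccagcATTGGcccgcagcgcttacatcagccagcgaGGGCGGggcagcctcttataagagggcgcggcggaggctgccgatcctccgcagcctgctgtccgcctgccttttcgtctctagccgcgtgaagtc

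Of these windows, that of Stmn3 had 49.7% G and C and that of Tubb3 67.3%, beside a median of 52.7% over 32851 windows. Both strands were searched for the TATA box (TATAAA), the GC box (GGGCGG), the CCAAT box and the E-box hexamers CAGATG and, its relative, CAGCTG. No matches overlapped in either window. GGGCGG was found in the windows of Tubb3, Map1b and Map2, and in 35.7% of all windows. CAGATG was found in those of Stmn3 and Map1b (17.2% of all), TATAAA in Map1b (13.6%) and CCAAT in Tubb3 (37.4%). CAGCTG was in none of the 4 and in 16.3% of all. These matches describe the letters of the windows and nothing was read from them about binding.

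In pretumor cells, set against GCP, the genes for the growth cone protein Gap43 and for the stathmins Stmn2 and Stmn3 fell, and so did Nefl within the low band. Of the 16 probe sets, 4 were called and all 4 were lower in pretumor, beside 4.36% of all probe sets called and 2.69% called lower. In tumor cells, set against GCP, both bright Stmn2 probe sets and Stmn3 fell, and so did Nefl and Nefm within the low band. These were 5 of 16 probe sets, all lower in tumor, beside 4.6% of all probe sets called and 3.19% called lower. None of the 16 was called between tumor and pretumor, where 0.998% of all were. The comparisons with GCP share the same 4 GCP arrays.

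The median difference of the 16 probe sets on the log2 scale was -0.45 for pretumor minus GCP, beside -0.01 over all probe sets. For tumor minus GCP it was -0.54, beside 0.00. In tumor minus pretumor it was -0.03, beside 0.01 over all. Among the 8 probe sets that reached 16, the medians were -0.75, -0.62 and -0.12, beside -0.02, 0.00 and 0.02 over the 3828 such probe sets. Of these 8, 3 were called lower in pretumor than in GCP, beside 5.17% of the 3828. Likewise 3 were called lower in tumor than in GCP, beside 6.48%. Cells of a type that had become fewer and cells that each held less of an RNA cannot be told apart in these bulk samples.

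**Figure D1:**
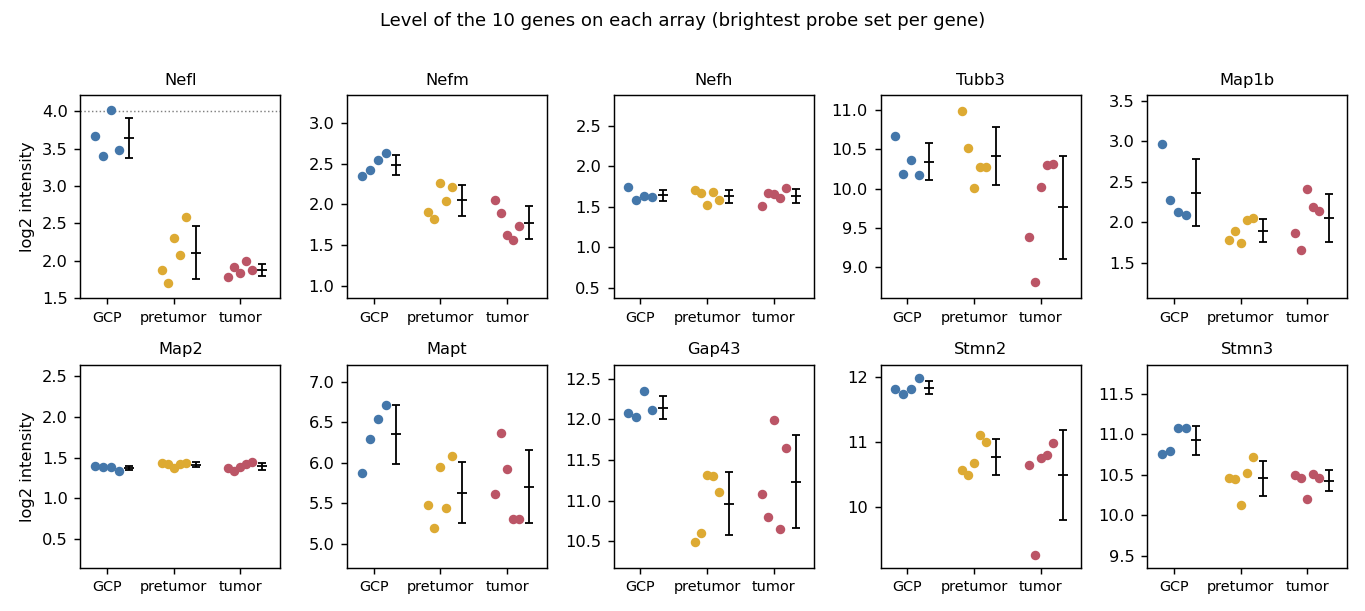
Level of each of the 10 genes on every array (log2 intensity, each panel with its own axis), for the brightest probe set of a gene. Dots are arrays of GCP, pretumor and tumor, the bars are mean ± SD, and a dotted line marks log2 4, the top of the low band, where it falls in a panel. All pretumor and tumor dots of Gap43, Stmn2, Stmn3, Nefl and Nefm lie below all GCP dots, whereas those of Tubb3 and Mapt overlap them.

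Nefl encodes the light subunit of neurofilaments, on which the other subunits assemble. Its probe set (103575_at) read 3.67, 3.40, 4.01 and 3.48 on the GCP arrays, then 1.88, 1.70, 2.31, 2.07 and 2.59 on the pretumor arrays, and 1.78, 1.92, 1.83, 1.99 and 1.87 on the tumor arrays. GCP 3 alone reached log2 4, and no pretumor or tumor array overlapped GCP. The gene was called lower both in pretumor (2.11 ± 0.35 against 3.64 ± 0.27 in GCP, SD, adjusted p = 0.000393) and in tumor (1.88 ± 0.08 against that of GCP, adjusted p = 9.7e-05). Neither call ended when any 1 array was left out. Both ended when intensities were floored at 16, since nearly all of these values lie under that floor.

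Nefm, the medium subunit, read 2.35, 2.42, 2.55 and 2.63 in GCP, then 1.91, 1.82, 2.27, 2.04 and 2.22 in pretumor, and 2.06, 1.89, 1.62, 1.56 and 1.74 in tumor (92346_at). Every value was in the low band, and the pretumor and tumor values lay below those of GCP without overlap. Tumor was called lower than GCP (1.77 ± 0.21 against 2.49 ± 0.13, SD, adjusted p = 0.00464), while pretumor averaged 2.05 ± 0.19 and was not called (adjusted p = 0.0639). That pretumor value passed without pretumor 3 (adjusted p = 0.0441) or without tumor 1 (0.0403). Nefh, the heavy subunit that is added in mature axons, stayed between 1.51 and 1.74 on all 14 arrays (103234_at).

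Tubb3, the beta-tubulin used mainly by neurons, was bright in every group and was not called in any comparison. On 160462_f_at it read 10.67, 10.18, 10.36 and 10.17 in GCP, 10.99, 10.52, 10.01, 10.28 and 10.28 in pretumor, and 9.38, 8.80, 10.02, 10.30 and 10.31 in tumor. The low tumor values were those of tumor 1 and tumor 2, and the groups overlapped. Pretumor averaged 10.42 ± 0.37 and GCP 10.35 ± 0.23 (SD), a difference of 0.07 with a 95% interval from -0.60 to 0.73. Tumor minus GCP was -0.59, with an interval from -1.25 to 0.08 (adjusted p = 0.41), and tumor minus pretumor was -0.65, with an interval from -1.28 to -0.03 (adjusted p = 0.413).

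The other Tubb3 probe set (161612_f_at) averaged 8.54 ± 0.18 in GCP, 8.74 ± 0.20 in pretumor and 8.35 ± 0.31 in tumor (SD). Its differences were 0.20 (interval -0.13 to 0.54) for pretumor minus GCP, -0.18 (-0.52 to 0.16) for tumor minus GCP and -0.39 (-0.71 to -0.07, adjusted p = 0.315) for tumor minus pretumor. Both Tubb3 sets carry the suffix for sequence shared within a gene family, so they may also read other beta-tubulins. Across the 14 arrays they correlated at r = 0.85, as a description.

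Mapt encodes tau, which binds and spaces axonal microtubules. Probe set 102431_at read 5.87, 6.29, 6.54 and 6.71 in GCP, 5.48, 5.20, 5.95, 5.44 and 6.09 in pretumor, and 5.62, 6.37, 5.93, 5.31 and 5.31 in tumor. Most pretumor and tumor arrays lay under GCP, but the groups overlapped through GCP 1, pretumor 3 and 5, and tumor 2 and 3. Pretumor minus GCP was -0.72 (interval -1.29 to -0.16, adjusted p = 0.173) and tumor minus GCP was -0.64 (interval -1.21 to -0.08, adjusted p = 0.239), and neither was called.

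A companion Mapt probe set, 102742_g_at, tracked it across arrays (r = 0.94, n = 14, the same libraries). It averaged 4.95 ± 0.51 in GCP, 4.17 ± 0.42 in pretumor and 4.35 ± 0.39 in tumor (SD). Its differences from GCP were -0.78 in pretumor (adjusted p = 0.178) and -0.60 in tumor (adjusted p = 0.347). The remaining Mapt set, 102743_at, stayed in the low band, with group means of 3.29 ± 0.17 in GCP, 3.02 ± 0.23 in pretumor and 2.97 ± 0.15 in tumor. With arrays weighted by their fit, 102431_at was called lower in pretumor (adjusted p = 0.00919) and in tumor (0.0488).

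Map1b, which stabilises microtubules in growing axons, and Map2, which binds those of dendrites, were in the low band. Map1b (99928_at) averaged 2.36 ± 0.41 in GCP, 1.90 ± 0.14 in pretumor and 2.05 ± 0.29 in tumor, with GCP 1 highest at 2.97 (SD). Map2 (97760_at) stayed between 1.33 and 1.45 on every array. Neither was called, and at these levels their probe sets do not show how much of either RNA was there.

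Gap43 is the growth-associated protein of axon tips. Its probe set (102389_s_at) read 12.08, 12.03, 12.35 and 12.12 in GCP, 10.49, 10.60, 11.31, 11.30 and 11.11 in pretumor, and 11.08, 10.80, 11.99, 10.65 and 11.65 in tumor. No pretumor or tumor array reached the lowest GCP array, and tumor 3 at 11.99 came nearest. Pretumor averaged 10.96 ± 0.39 and GCP 12.14 ± 0.14 (SD), and Gap43 fell 2.27-fold in pretumor (log2 difference -1.18, SE 0.27, adjusted p = 0.03). Tumor averaged 11.23 ± 0.57, a difference from GCP of -0.91 (interval -1.51 to -0.32) that was not called (adjusted p = 0.0913).

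The Gap43 call in pretumor was close to the threshold. It ended when any 1 of GCP 1 to 4 or pretumor 1, 2 or 5 was left out (adjusted p = 0.0508 to 0.094), and tumor was called lower than GCP without tumor 3 (adjusted p = 0.0219). Pretumor and tumor were not separated from each other, with tumor minus pretumor at 0.27 (interval -0.29 to 0.83).

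Stmn2 encodes SCG10, the stathmin that marks neuronal growth cones. Probe set 95670_at read 11.43, 11.54, 12.00 and 11.89 in GCP, 10.09, 10.38, 10.78, 11.05 and 10.58 in pretumor, and 10.80, 9.60, 10.58, 10.48 and 10.34 in tumor. All 10 later arrays lay under all 4 GCP arrays, with tumor 2 lowest. Stmn2 fell 2.20-fold in pretumor (10.58 ± 0.37 against 11.72 ± 0.27 in GCP, SD, SE of the difference 0.25, adjusted p = 0.0216) and 2.56-fold in tumor (10.36 ± 0.45, SE 0.25, adjusted p = 0.00792). The tumor call held without any 1 array, the highest adjusted p being 0.0318. That in pretumor ended without GCP 3 (0.074), GCP 4 (0.0721) or pretumor 2 (0.0575).

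On the other bright Stmn2 probe set, 95669_g_at, the arrays read 11.81, 11.74, 11.81 and 11.98 in GCP, 10.56, 10.49, 10.67, 11.11 and 10.99 in pretumor, and 10.65, 9.26, 10.75, 10.79 and 10.98 in tumor. The GCP values were tight and again above every other array, while tumor 2 stood far below the rest of its group. Tumor averaged 10.48 ± 0.70 and GCP 11.83 ± 0.10 (SD), a fall of 2.55-fold (adjusted p = 0.022). Pretumor averaged 10.76 ± 0.27, with a difference of -1.07 from GCP that missed the threshold (adjusted p = 0.0669). The tumor call ended without any 1 of the 4 GCP arrays (0.0537 to 0.0714). Without tumor 2, pretumor was called lower than GCP (adjusted p = 0.001).

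Both bright Stmn2 sets correlated at r = 0.92 over the 14 arrays, and the remaining set, 95668_at, stayed between 1.46 and 1.66. Tumor minus pretumor was -0.22 on 95670_at (interval -0.72 to 0.29) and -0.28 on 95669_g_at (interval -0.88 to 0.33).

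Stmn3 encodes SCLIP, a stathmin of neurons and their branches. Its bright probe set (160170_at) read 10.75, 10.79, 11.08 and 11.07 in GCP, 10.46, 10.44, 10.12, 10.52 and 10.72 in pretumor, and 10.49, 10.46, 10.20, 10.51 and 10.46 in tumor. The groups were close but did not overlap, pretumor 5 at 10.72 lying just under GCP 1 at 10.75. Stmn3 fell 1.39-fold in pretumor (10.45 ± 0.22 against 10.92 ± 0.18 in GCP, SD, SE of the difference 0.11, adjusted p = 0.0379) and 1.41-fold in tumor (10.42 ± 0.13, SE 0.11, adjusted p = 0.029). Its other set, 161934_f_at, was in the low band.

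Of the called members, Stmn3 moved least, and both of its calls were near the threshold. In pretumor the call ended without any 1 of GCP 2 to 4, pretumor 1 to 4, tumor 4 or tumor 5 (adjusted p = 0.0506 to 0.125), and in tumor without GCP 3 (0.0951), GCP 4 (0.103) or tumor 1 (0.0509). Both ended after quantile normalization (0.0785 and 0.0676).

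**Figure D2:**
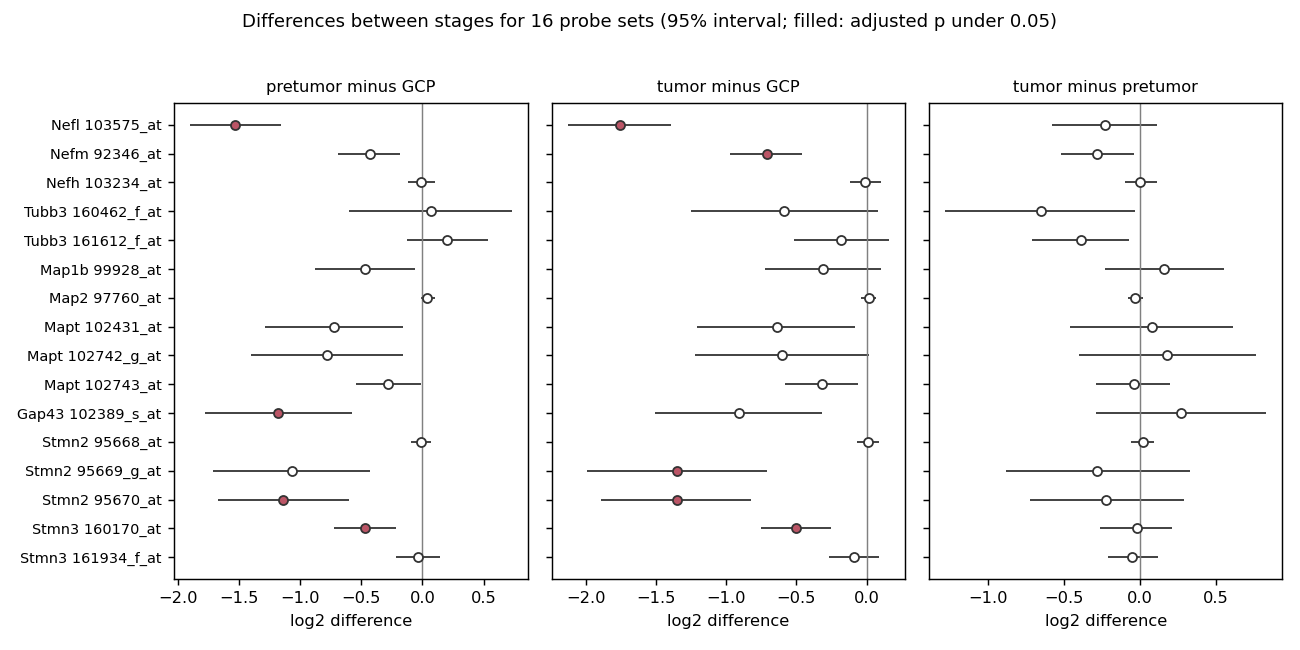
Differences between stages on the log2 scale for the 16 probe sets, 1 panel per comparison, with 95% intervals and a filled mark where the adjusted p is under 0.05. The filled marks all lie below 0 in pretumor minus GCP (4) and tumor minus GCP (5), and none is filled in tumor minus pretumor.

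The pairs of GCP arrays bear on these calls. On the array pair GCP 3 and GCP 4, the bright Mapt sets stood 0.55 and 0.71 above GCP 1 and GCP 2 (log2), Stmn2 0.46 (95670_at) and 0.12 (95669_g_at), Stmn3 0.30, Nefm 0.21 and Gap43 0.18, with no overlap between the pairs. Map1b went the other way, by -0.52. On 95669_g_at the gap was narrow, with GCP 1 and GCP 3 both at 11.81 after rounding. The share of all probe sets without such an overlap was not counted, so this is not shown to be particular to the members. The Gapdh ratio split along the same pairs, at 0.461 and 0.558 on GCP 1 and GCP 2 and at -0.0179 and -0.0182 on GCP 3 and GCP 4. Among pretumor arrays it was 0.00563 on pretumor 3 and 0.186 on pretumor 5, the arrays highest for Mapt (102431_at), and 0.786, 1.08 and 0.854 on pretumor 1, 2 and 4. Its part in these values was not tested. With each GCP pair averaged to 1 value, 1 member probe set was called in pretumor and 1 in tumor against GCP, and both were Nefl. With GCP 1 and GCP 2 left out, 2 and 4 were called, and with GCP 3 and GCP 4 left out, 1 and 1. With pretumor 3 and tumor 2 left out, the arrays least like their groups, 4 and 5 were called, though not the same sets: in pretumor Stmn3 lost its call (adjusted p = 0.0631) and Stmn2 95669_g_at gained one (0.00294).

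None of the 16 probe sets was called in tumor minus pretumor by limma, and 3 had an unadjusted p under 0.05, namely Nefm and both Tubb3 sets. All 3 were lower in tumor. Over all probe sets 11.3% had such a p. Both comparisons with GCP had more, 10 of 16 in pretumor and 8 of 16 in tumor, where 15.4% of all probe sets had one in each. No member probe set had tumor values all below or all above the pretumor values, beside 1.61% and 1.01% of all probe sets. Against GCP, 7 sets in pretumor and 6 in tumor lay wholly below it, beside 5.48% and 4.73% of all probe sets.

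Genes that work beside the members were read from 8 lists with 112 measured genes in all. Of the 112, 4 rose and 8 fell in pretumor against GCP, 3 rose and 12 fell in tumor against GCP, and 1 fell in tumor against pretumor. Each gene was read on its brightest probe set. Over all 8251 genes 5.24%, 5.62% and 1.09% were called in those comparisons. Of all genes, 1.99% rose and 3.25% fell in pretumor against GCP, and 1.7% rose and 3.93% fell in tumor against GCP. In tumor against pretumor 0.133% rose and 0.957% fell. Calls were more frequent among the 3828 probe sets that reached 16, at 8.83% in pretumor and 10.1% in tumor against GCP.

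Other stathmins did not all follow Stmn2 and Stmn3. Of 9 genes for stathmins and microtubule turnover, Stmn4 rose and Stmn1 fell in pretumor, Stmn1 fell in tumor against GCP, and it fell again in tumor against pretumor. The list's medians were -0.06 for pretumor over GCP, -0.15 for tumor over GCP and -0.06 for tumor over pretumor. Stmn4, the brain stathmin RB3, averaged 10.86 ± 0.17 in pretumor and 9.60 ± 0.31 in GCP (SD), 2.39-fold higher (98486_at, adjusted p = 0.0157). That call ended without GCP 2 (0.0545), and tumor averaged 10.06 ± 0.57, not called against GCP or pretumor.

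Stmn1, the stathmin of dividing cells, stood at 13.26 ± 0.08 in tumor against 13.63 ± 0.03 in GCP (SD), 1.29-fold lower (97909_at, adjusted p = 0.000102). Against pretumor, at 13.48 ± 0.03, tumor was 1.17-fold lower (adjusted p = 0.0075), and neither call depended on 1 array. Pretumor was 1.11-fold lower than GCP (adjusted p = 0.0373), which was lost on leaving out any 1 of GCP 1 to 4 or pretumor 1, 2, 4 or 5 (highest adjusted p 0.114).

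Among 31 genes of the growth cone membrane and actin, 3 rose and 3 fell in pretumor against GCP, and 2 rose and 4 fell in tumor against GCP. None was called in tumor minus pretumor, and the medians were -0.16, -0.16 and -0.03. Crmp1, a collapsin response mediator that carries semaphorin signals, rose 1.82-fold in pretumor (9.79 ± 0.16 against 8.93 ± 0.23 in GCP, SD, adjusted p = 0.006) and 1.78-fold in tumor (9.76 ± 0.27, adjusted p = 0.00673). Its relative Dpysl4 rose 2.46-fold in tumor (6.49 ± 0.45 against 5.19 ± 0.17 in GCP, adjusted p = 0.012). None of these 3 calls ended without 1 array.

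Fscn1, which bundles actin in filopodia, rose at least 4.35-fold in pretumor, taken against 16 (6.12 ± 0.64 against 3.75 ± 0.37 in GCP, SD, adjusted p = 0.0123). Ncam1, the neural adhesion molecule, rose 1.79-fold in pretumor (12.21 ± 0.12 against 11.37 ± 0.19 in GCP, adjusted p = 0.0234), which was lost without GCP 2, 3 or 4 or pretumor 1 or 4 (highest 0.0762). In the opposite direction, Tmsb4x, which holds actin monomers, fell 1.37-fold in pretumor (12.82 ± 0.15 against 13.27 ± 0.16 in GCP, adjusted p = 0.01) and 1.54-fold in tumor (12.65 ± 0.07, adjusted p = 0.00115).

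The other genes called in that list were Pfn2 and Rtn1, lower in both stages than in GCP, and Basp1, a membrane protein that resembles Gap43 in role, lower in tumor. Whether the Pfn2 and Basp1 calls held with 1 array left out was not examined. Rtn1 fell 1.61-fold in pretumor (adjusted p = 0.0227, ended without GCP 2, 3 or 4 or pretumor 2, highest 0.0732). Its call in tumor, 1.52-fold lower than GCP (adjusted p = 0.0419), ended without any 1 of 11 arrays, all but pretumor 1, pretumor 4 and tumor 3 (highest 0.128).

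Of 10 tubulin isotypes, 1 fell in pretumor and 2 in tumor against GCP, with medians of -0.09 and -0.15, and none was called in tumor minus pretumor (median -0.03). Tubb2a, a major brain beta-tubulin, averaged 11.57 ± 0.32 in pretumor, 11.53 ± 0.35 in tumor and 12.46 ± 0.24 in GCP (94835_f_at, SD). It was 1.85-fold lower in pretumor (adjusted p = 0.0279) and 1.90-fold lower in tumor (adjusted p = 0.022). Leaving out GCP 2, 3 or 4 or pretumor 1, 2 or 5 ended the pretumor call (highest 0.094), and GCP 3 or 4 or tumor 1 or 4 the tumor call (highest 0.0744). Tubb5 fell 1.24-fold in tumor (13.64 ± 0.16 against 13.95 ± 0.12 in GCP, adjusted p = 0.042), and 11 arrays ended that call when left out, all but GCP 2, tumor 3 and tumor 4 (highest 0.136). Like those of Tubb3, the sets read for Tubb2a and Tubb5 carry the suffix for sequence shared within a gene family. They may also read other beta-tubulins. Tuba1a, the main neuronal alpha-tubulin, was not called in tumor minus pretumor (15.07 ± 0.15 against 15.10 ± 0.13).

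Of 15 other microtubule-associated and plus-end proteins, Mapre3 fell in both stages within the low band, and Pafah1b1, the LIS1 regulator of dynein, fell 1.47-fold in tumor. Pafah1b1 averaged 6.68 ± 0.24 in tumor and 7.23 ± 0.12 in GCP (SD, adjusted p = 0.0322), and that call ended without any 1 of GCP 1 to 4 or tumor 1, 2, 4 or 5 (highest 0.11). Mapre3 in pretumor (adjusted p = 0.0494) was lost on leaving out any 1 array other than pretumor 3 or 4 (highest 0.132). The list's medians in the 3 comparisons were -0.07, -0.17 and -0.08. Dcx, the doublecortin of migrating neurons, averaged 10.53 ± 0.33 in pretumor, 10.27 ± 0.40 in tumor and 11.09 ± 0.18 in GCP, and was not called in either stage against GCP (adjusted p = 0.207 and 0.0509).

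Of 6 intermediate filament genes and partners, Nes, the nestin of neural progenitors, rose 4.26-fold in tumor (8.26 ± 0.92 against 6.17 ± 0.27 in GCP, SD, adjusted p = 0.015). The call ended without GCP 4 (0.0549), no other gene of the list was called in any comparison, and the medians were -0.02, -0.01 and 0.02 in the same 3 comparisons. Of 7 genes of the membrane skeleton, Sptbn1, a beta-spectrin, fell 2.34-fold in pretumor (8.35 ± 0.14 against 9.58 ± 0.14 in GCP, adjusted p = 0.00232) and 2.18-fold in tumor (8.45 ± 0.41, adjusted p = 0.00349). Neither Sptbn1 call depended on 1 array, and the list's medians were 0.08, -0.05 and -0.05.

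Genes that modify tau or carry cargo along microtubules were read beside 5.24% of all genes called in pretumor and 5.62% in tumor against GCP. Whether their share differed from these was not tested. Of 15 tau kinases and partners, Ppp2r2b, a phosphatase subunit, was called lower in both stages than in GCP, within the low band (2.17 ± 0.18 in pretumor, 2.19 ± 0.25 in tumor and 3.58 ± 0.54 in GCP, SD, adjusted p = 0.00332 and 0.00349). Of 19 axonal motor genes, Dctn2, a dynactin subunit, fell 1.34-fold in tumor (9.03 ± 0.19 against 9.46 ± 0.15 in GCP, adjusted p = 0.025), and that call ended without GCP 2, 3 or 4 or tumor 1, 2, 4 or 5 (highest 0.0815). The medians of these lists lay between -0.06 and 0.04 in the 3 comparisons.

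**Figure D3:**
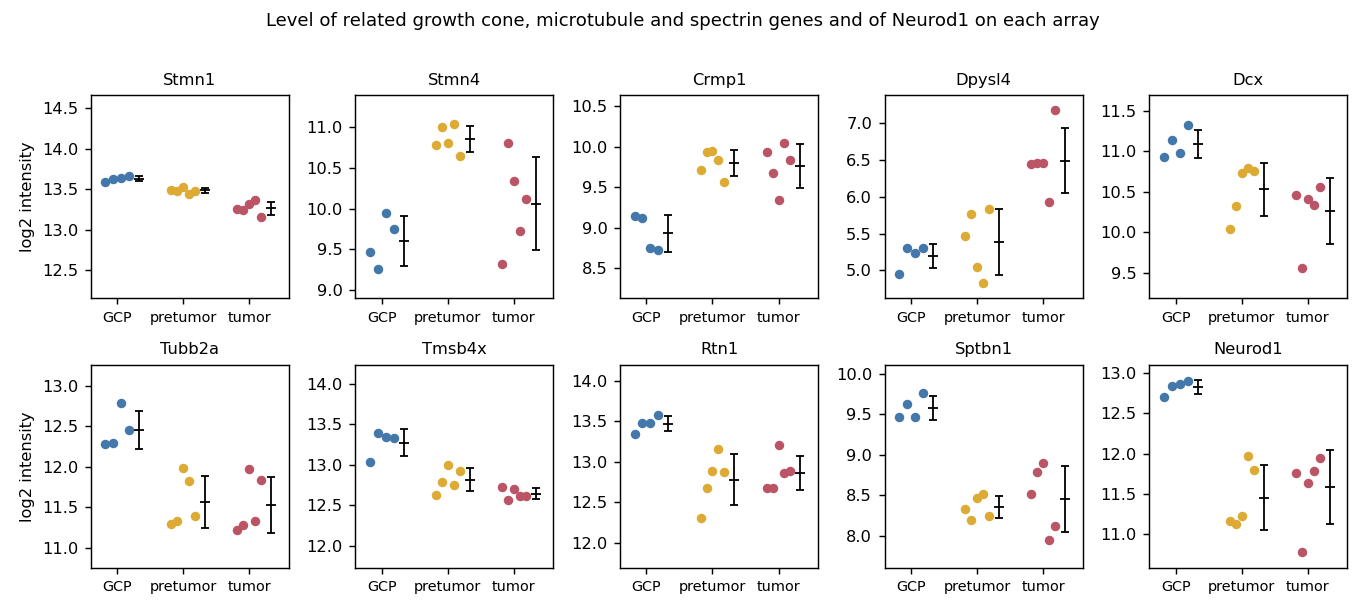
Level of 10 genes beside the members on every array (log2 intensity, each panel with its own axis), with dots for the arrays of GCP, pretumor and tumor and bars for mean ± SD. Stmn1, Tubb2a, Tmsb4x, Rtn1, Sptbn1, Neurod1 and Dcx average lower in pretumor and tumor than in GCP, and Stmn4, Crmp1 and Dpysl4 average higher. Against GCP, Dcx was not called in either stage, Stmn4 was not called in tumor and Dpysl4 was not called in pretumor.

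Markers of the cell types that a cerebellar fraction can hold moved beside the members. Over all genes, 3.25% were called lower and 1.99% higher in pretumor against GCP, and 3.93% and 1.7% in tumor against GCP. In tumor against pretumor these shares were 0.957% and 0.133%. For postmitotic granule neurons, 11 markers were measured, and their summed intensity was 6823 to 7907 in GCP, 2289 to 4098 in pretumor and 1824 to 3992 in tumor arrays. Neurod1 alone held 94.7% to 98.6% of that sum on the arrays, and without it the other 10 summed to 154 to 248, 62 to 134 and 57 to 79. The median difference of the 11 was -0.07 in pretumor and -0.34 in tumor against GCP, and 0.00 in tumor against pretumor. Of the 11, Neurod1, Cntn1 and Syt1 fell in both later stages against GCP and none rose. Gabra6, Gabrd, Neurod2, Grin2c, Grin2b, Calb2, Syt1 and Vsnl1 stayed in the low band in all group means. Neurod1, the factor that drives granule cell differentiation, fell 2.59-fold in pretumor (11.45 ± 0.40 against 12.83 ± 0.09 in GCP, SD, adjusted p = 0.00707) and 2.37-fold in tumor (11.58 ± 0.46, adjusted p = 0.0109), and no array left out ended either call.

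For inhibitory interneurons, 8 markers summed to 86 to 175 in GCP, 41 to 75 in pretumor and 31 to 44 in tumor arrays. Gad1, which held 58.7% to 78.7% of the GCP sums, fell in both later stages, as did Slc32a1 and Lhx5 within the low band, and without Gad1 the sums were 35 to 37, 34 to 52 and 27 to 40. The list's median was -0.09 in pretumor and -0.08 in tumor against GCP. For unipolar brush, nuclear and brainstem neurons, 4 markers summed to 33 to 78, 13 to 20 and 12 to 13. Eomes, which held 70.3% to 86.2% of the GCP sums, fell in both later stages, while the other 3 stayed in the low band and summed to 10 to 11, 10 to 12 and 9 to 10, with list medians of 0.02 in pretumor and -0.15 in tumor against GCP. For Purkinje cells, 9 markers summed to 46 to 72, 59 to 99 and 47 to 101, with Calb1 called lower in tumor than in pretumor. Granule cell precursor markers summed to 9798 to 12047 in GCP, 8764 to 12215 in pretumor and 7084 to 13706 in tumor arrays, and Pax6 fell in both later stages. Some of these calls were lost on leaving out 1 array: Syt1 in pretumor and tumor (highest adjusted p 0.11 and 0.146), Cntn1 in pretumor (0.125), Slc32a1 in pretumor (0.109) and Calb1 (0.118). The part of these cell types in the members' results was not tested.

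Non-neuronal lists differed too, and the same shares over all genes apply to the markers called in them. Sums in GCP, pretumor and tumor arrays were 9374 to 12961, 1210 to 1924 and 488 to 1917 for 8 astrocyte markers and 197 to 321, 297 to 772 and 137 to 217 for 9 oligodendrocyte markers. Among the astrocyte markers Fabp7, which held 82.4% to 90.7% of the GCP sums, was lower in both later stages, and without it the sums were 1020 to 2146, 624 to 833 and 136 to 413. Aldoc, in the low band, was called higher in pretumor than in GCP (3.67 ± 0.38 against 2.44 ± 0.16, SD, adjusted p = 0.00138), and Aqp4, Aldoc and Gja1 were called lower in tumor than in GCP. Aldoc and Gja1 were also called lower in tumor than in pretumor (adjusted p = 0.000267 and 0.0408). The astrocyte median was -0.34 in pretumor and -0.63 in tumor against GCP, and -0.48 in tumor against pretumor. Mog, Mag and Mal, of oligodendrocytes, were called higher in pretumor than in GCP and, with Mbp, lower in tumor than in pretumor, and Mbp was lower in tumor than in GCP. Sums were 150 to 378, 808 to 1358 and 631 to 1891 for 12 microglial markers. Of these, Ctss and Lyz2 alone were called, higher in both later stages, though Ctss in tumor was lost without some arrays (highest 0.103). Ctss held 54.3% to 70.2% of the GCP sums, and without it the sums were 68 to 113, 192 to 362 and 306 to 792. In the low band lay 8 of the 12, and the list's median was 0.1 in pretumor and 0.17 in tumor against GCP. For 10 endothelial markers the sums were 95 to 129, 53 to 71 and 35 to 78. Of the 10, 4 were called lower in pretumor and 5 in tumor than in GCP, beside 3.25% and 3.93% of all genes. All but Cldn5 lay in the low band, the other called markers included. Cldn5 held 44.9% to 54.4% of the GCP sums, and without it the sums were 47 to 68, 36 to 41 and 31 to 63, so tumor overlapped GCP. For 11 proliferation markers the sums were 6241 to 6705, 5176 to 7631 and 4847 to 8278. These ranges overlapped between the stages, and Ccnb2 and Cdk1 were called lower in pretumor than in GCP. Calls lost on leaving out 1 array were Aldoc in tumor against GCP (highest adjusted p 0.107) and Gja1 in tumor against pretumor (0.111). So were Mag in both of its comparisons (0.0915 and 0.0838), Cldn5 in pretumor (0.113), Ccnb2 (0.064) and Cdk1 (0.138). The part of these cells was not tested either.

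The genes most like Stmn2, Gap43 and Mapt in level over the 14 arrays were taken from 3124 candidate genes. For Stmn2 (95669_g_at) they were Neurod1 (r = 0.94), Dcx (0.94) and Gab1 (0.93), an adaptor of receptor tyrosine kinases. After each group's mean was taken off, the same pairs had r of 0.92, 0.86 and 0.80. Tumor 2 was the lowest of the 14 arrays on Stmn2 (9.26), Neurod1 (10.78), Dcx (9.56) and Gab1 (6.51). How far these r rest on that array was not tested. For Gap43 they were Olfm1 (0.96), Tubb2a (0.93) and Slc25a20 (0.92), a mitochondrial carnitine carrier, with r of 0.90, 0.87 and 0.88 off the group means. For Mapt (102431_at) they were Ilk (0.92), Rasa3 (0.91) and Itgb1bp1 (0.90), with 0.91, 0.84 and 0.83. All points share the same 14 libraries, and these values are descriptions. The genes were picked for a high r on these arrays, so the r off the group means is not independent of that choice.

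Members did not all vary together once the stage means were removed. The bright Stmn2 set 95670_at had r = 0.55 with Gap43 and 0.09 with Stmn3 over the 14 deviations, and Gap43 with Stmn3 had -0.27. Tubb3 (160462_f_at) and Mapt (102431_at) had -0.72. The points again share their libraries, and no test was made.

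**Figure D4:**
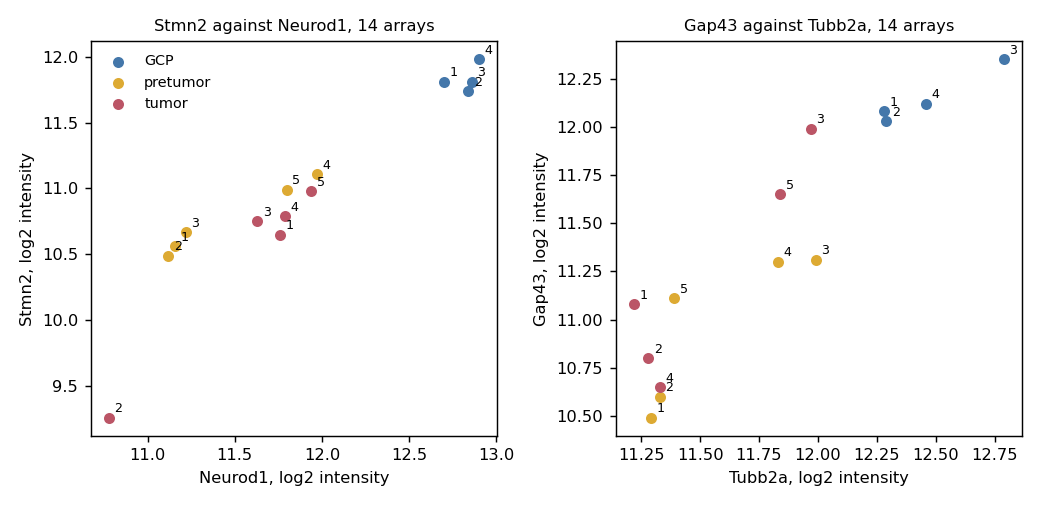
Level of Stmn2 against Neurod1 and of Gap43 against Tubb2a (log2 intensity on both axes), 1 point per array, coloured by stage and numbered by array. Over the 14 arrays r is 0.94 for Stmn2 with Neurod1 and 0.93 for Gap43 with Tubb2a, and GCP arrays lie at the upper right of both panels.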

How the data were processed

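The authors deposited 1 linear intensity per probe set for each of 14 arrays; how they were summarised and normalised is not given here. Arrays have no read depth, and their number limits the precision. Array medians lay between 4.11 and 4.39 in intensity. That is inside the low band, so the medians do not show how the arrays compare at bright levels. No further normalization was applied in the main fit, and quantile normalization and median scaling were run as alternatives. The 66 control probe sets were removed, which left 12422. Intensities were floored at 2.46 (the 10th percentile), which put 404 probe sets at 1 value, and taken to log2. Groups followed the titles. A model of 3 group means was fitted with limma 3.58.1 in R 4.3.3 (11 residual degrees of freedom, 0.83 prior degrees), with two-sided p-values adjusted over 12422 probe sets. Tables were made with pandas 2.3.3 in Python 3.11.15. Symbols came from the platform annotation, which gives 10833 probe sets 1 symbol, 396 several and 1193 none; all 10 members were found in the RefSeq table of GRCm38.p6. A gene's brightest probe set stands for it in lists. Named genes were all members, up to 3 called genes per list and comparison (the brightest gene where none was called), and the 3 genes most like each of 3 members. Members, the 18 lists and tests were chosen with earlier results of these data known. A total of 28 alternatives was run.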

Additional observations from a re-analysis of the deposited data

Results flagged for a closer look

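In 4 of the 48 groups of member values, 1 array stood apart from the others of its group by Dixon's test, on the log2 scale; chance gives about 1 in 20 groups. Tumor 2 read 9.26 for Stmn2 on 95669_g_at, below the other tumor arrays at 10.65 to 10.98. It was also the lowest tumor array on the companion Stmn2 set and on both Tubb3 sets. Tumor 3 read 10.2 for Stmn3 on 160170_at, below the others at 10.46 to 10.51. In the low band, tumor 1 read 1.63 for Stmn2 on 95668_at, above the others at 1.53 to 1.55, and pretumor 3 read 1.64 for Stmn3 on 161934_f_at, below the others at 1.92 to 1.97.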

How the results depend on the processing

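The counts called depended on the treatment of the GCP arrays, on a floor and on array weights, and the cause was not tested. Over all probe sets, pretumor minus GCP gave 541, against 194 with a floor at 16, 1508 with array weights, 168 with GCP arrays averaged in pairs, 298 without GCP 1 and 2, 203 without GCP 3 and 4, and 331 to 624 leaving out 1 array. Tumor minus GCP gave 571, against 232, 997, 198, 310 and 215 in the same order, 335 with the compared groups alone, and 338 to 712. Tumor minus pretumor gave 124, against 32, 393, 69, 70 and 76, 50 with the compared groups alone, and 70 to 148. Member probe sets called were 4 in pretumor minus GCP, against 0 with the floor at 16, 8 with array weights, 1, 2 and 1 with GCP arrays paired or left out, and 1 to 5. In tumor minus GCP they were 5, against 1 with the floor, 1 with pairs averaged, 1 without GCP 3 and 4, and 3 to 6. Tumor minus pretumor gave 0 under all 28 alternatives.

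The labels do not say whether replicate numbers are shared between groups. No pairing by number was seen (median r of deviations -0.0413 for the same number in other groups, 0.0444 for other numbers). The same-number r ran from -0.323 to 0.51, so this check cannot exclude pairing. With the number as a replicate block, 383, 436 and 76 probe sets were called in the 3 comparisons, with 4, 5 and 0 members. Stmn3 in pretumor lost its call there (adjusted p = 0.0559).

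11 small differences, none of them called, changed sign; the ranges leave out 1 array at a time. In pretumor minus GCP, Tubb3 160462_f_at (0.07) ran from -0.08 to 0.18 and was -0.01 without GCP 3 and 4. Macf1 (-0.01) ran from -0.05 to 0.04 and was 0.02 with quantile normalization, 0.00 with median scaling and 0.02 without GCP 3 and 4. Dynll1 (-0.09) was 0.03 with array weights. In tumor minus pretumor, Mapt 102431_at (0.08) ran from -0.09 to 0.19, Stmn2 95669_g_at (-0.28) from -0.40 to 0.03, Stmn3 160170_at (-0.02) from -0.11 to 0.04, Tuba1a (-0.02) from -0.07 to 0.04, Rtn1 (0.08) from -0.03 to 0.17, Gsk3a (0.03) from 0.00 to 0.06 and Dynll1 (0.05) from -0.02 to 0.11. Without pretumor 3 and tumor 2, Mapt was -0.01, Stmn2 0.00 on 95669_g_at and 0.02 on 95670_at (-0.22), and Dynll1 -0.05; with array weights Dynll1 was -0.11.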
